A study of Sus scrofa domesticus with 28 samples.

Results

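RGS5, CNN1 and MYL6 are 3 genes of blood vessel walls and of cell contraction. They were followed here over 28 biopsies of pig skin and scar. Their probes were found by matching each probe's RefSeq accession to the pig genes RGS5 (gene ID 397640), CNN1 (gene ID 396911) and MYL6 (gene ID 396807). This gave 8 probes of the 43603 on the array, 2 for RGS5, 2 for CNN1 and 4 for MYL6. All 8 passed the filter on dim probes, were well above background on all 28 arrays and were saturated on 0 arrays.

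The study followed scars of lighter and darker colour in the red Duroc pig, a breed used as a model of human hypertrophic scarring. The 28 biopsies came from 2 juvenile castrated male animals, numbered 49 and 50, from the left and right side of each. They comprise 4 biopsies of control skin, and 8 each of early, mid and late scar. Early scar was sham treated throughout, with 4 hyperpigmented (hyper) and 4 hypopigmented (hypo) biopsies. Mid and late scar each had 2 biopsies of every combination of hyper or hypo with pressure or sham. All pressure biopsies came from the right side, and all mid and late sham biopsies from the left, so treatment and side cannot be told apart. The labels call the arms sham and pressure, the lesions hyper and hypo, and the phases early, mid and late, and define none of them further. No array repeats a biopsy, but all come from 2 animals, so a p-value here reflects how biopsies within this pair of pigs vary and does not extend to other pigs.

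Pericytes are contractile cells that wrap capillaries, and smooth muscle cells form the wall of larger vessels and the muscles that raise hairs. RGS5 encodes a regulator of G protein signalling, which speeds GTP hydrolysis on G protein alpha subunits and so ends signals from receptors such as those for endothelin and angiotensin; it is widely used as a pericyte marker. CNN1 encodes calponin 1, an actin-binding protein of differentiated smooth muscle that slows the actomyosin ATPase. MYL6 encodes the essential light chain of smooth muscle and non-muscle myosin II and is made by nearly all cell types. In a biopsy, fewer cells of a type and less RNA per cell cannot be told apart.

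Each value below is the log2 ratio of the biopsy to a common reference RNA, so 0 is the level in the reference and a difference of 1 is a doubling. Each gene is represented by its brightest probe, called probe 1. Values of different genes are not compared, since each probe has its own relation to the reference. Over the 28 arrays, 31.4 to 55.7% of all probes were well above background, and the number of arrays limits the precision. A list of 22 skeletal muscle genes (myosins, troponins, creatine kinase and others) set 3 arrays apart. Its mean stood at 3.03 log2 units above the genes' medians in early sham hypo 50 left, 4.37 in mid pressure hyper 49 right and 5.18 in late pressure hyper 49 right. The next highest array, late sham hyper 49 left, was at 1.80. Results are given with and without these 3 muscle-rich arrays where they differ.

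RGS5 was higher in scar than in control skin at every phase. In control skin the 4 biopsies read 1.64, 1.82, 1.98 and 2.03. In early scar the 8 biopsies ran from 2.74 through a median of 2.87 to 3.67. In mid scar they ran from 2.84 through 3.44 to 4.32, and in late scar from 1.94 through 3.32 to 4.88. All 8 early and all 8 mid biopsies lay above the highest control biopsy, as did 7 of 8 late ones. The exception was the muscle-rich late pressure hyper biopsy of animal 49, at 1.94, inside the control range.

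**Figure D1:**
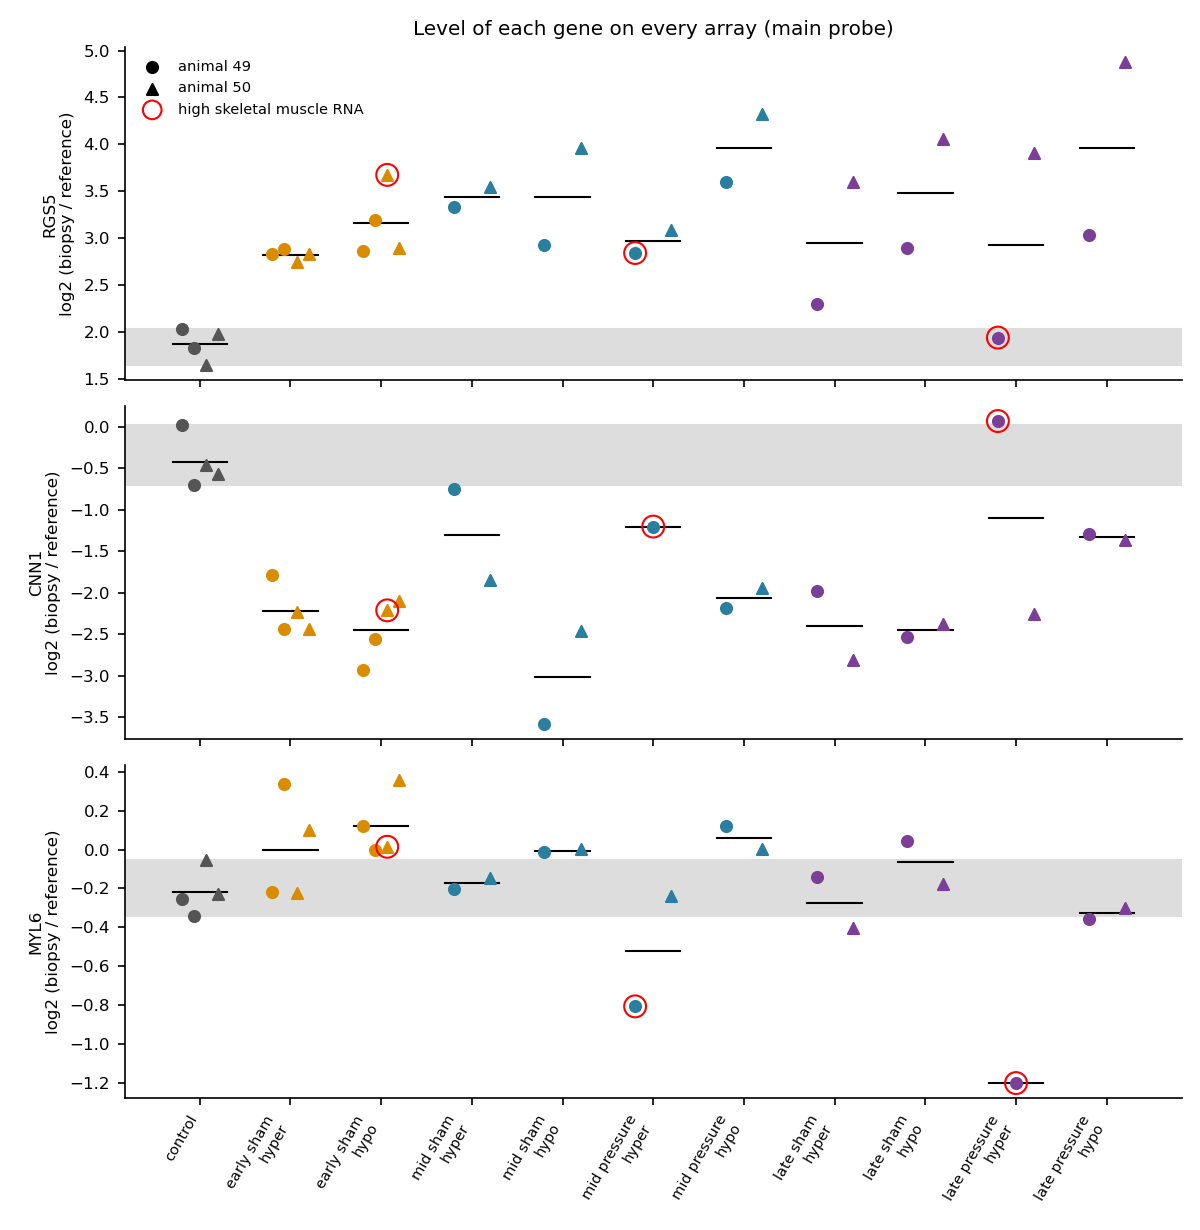
Level of RGS5, CNN1 and MYL6 (probe 1) on every array, as log2 of biopsy over reference, by group. Circles are animal 49 and triangles animal 50, the bar is the group mean, the grey band is the range of the 4 control biopsies, and red rings mark the 3 muscle-rich arrays. RGS5 lies above the band on all early and mid arrays, CNN1 lies below it on all early and mid arrays with a value, and the lowest MYL6 values, -0.81 and -1.20, are on muscle-rich arrays.

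Against control skin RGS5 rose by 1.12 ± 0.28 (SE) in early scar, or 2.18-fold, with an adjusted p of 0.00316 in limma. The difference was 1.58 ± 0.28 in mid scar, or 3.0-fold (adjusted p = 0.000325), and 1.46 ± 0.28 in late scar, or 2.75-fold (adjusted p = 0.000379). These 3 comparisons share the same 4 control biopsies. The background is high: 38.9% of the 18765 features tested passed the same threshold in early scar, 33.8% in mid scar and 39.7% in late scar, with 24.1%, 22.1% and 26.3% called higher. The share of features whose arrays lay wholly above control was 15.9% in early scar, 7.31% in mid scar and 9.79% in late scar, and the median difference of all features was 0.10 to 0.11. The second RGS5 probe rose by 1.12 ± 0.28, 1.48 ± 0.28 and 1.25 ± 0.28 in the 3 phases (adjusted p = 0.00343, 0.000612 and 0.00152 in limma), and the probes had r = 0.954 over the 28 arrays. Without the 3 muscle-rich arrays the differences of probe 1 were 1.08, 1.55 and 1.64, all past the threshold. Within single slides holding both groups, early minus control was 1.0 and 1.40, mid minus control 1.59 and 2.13, and late minus control ran from 0.30 to 3.05 over 3 slides. The calls depended on how the local background was handled: subtracted as deposited, with no cap on extreme spots, the 3 differences were 0.48, 1.15 and 0.71 (adjusted p = 0.481, 0.0976 and 0.303 in limma).

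Between scar phases no RGS5 difference passed the threshold. Mid minus early sham scar was 0.45 ± 0.28 (adjusted p = 0.346), late minus early sham scar 0.22 ± 0.28 (adjusted p = 0.594) and late minus mid scar -0.13 ± 0.23 (adjusted p = 0.861). The share of all features called was 6.45%, 19.9% and 0.00533% in the same order. The spread of RGS5 was widest in late scar, with an SD of 0.97 (n = 8) against 0.31 in early (n = 8), 0.51 in mid scar (n = 8) and 0.17 in control skin (n = 4). Late scar also divided by animal. The 4 late biopsies of animal 50 read 3.60 to 4.88 and the 4 of animal 49 read 1.94 to 3.03. The share of all features that divide by animal in late scar is not given here. The second probe had the same order, with 3.36 to 4.26 in animal 50 and 1.65 to 2.63 in animal 49. In early scar both animals covered a like range, 2.74 to 3.67 in animal 50 and 2.83 to 3.20 in animal 49. Over all groups animal 50 exceeded animal 49 by 0.62 ± 0.17 (adjusted p = 0.254 in limma, where 0.203% of features passed), and the difference between phases in this respect was not tested.

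CNN1 was lower in scar than in control skin at every phase. The control biopsies read -0.70, -0.57, -0.46 and 0.02. Early scar ran from -2.93 through a median of -2.33 to -1.79. Mid scar ran from -3.58 through -1.94 to -0.75 over 7 biopsies, since the spot of mid pressure hyper 50 right was flagged by the scanner program and dropped. Late scar ran from -2.81 through -2.12 to 0.07. All 8 early and all 7 measured mid biopsies lay below the lowest control biopsy, as did 7 of 8 late ones. The exception was again the muscle-rich late pressure hyper biopsy of animal 49, at 0.07 the highest of all 27 values.

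CNN1 fell by 1.91 ± 0.32 in early scar, or 3.76-fold (adjusted p = 0.000137 in limma), by 1.49 ± 0.34 in mid scar, or 2.81-fold (adjusted p = 0.00251), and by 1.39 ± 0.32 in late scar, or 2.63-fold (adjusted p = 0.00216). Of all features, 14.7%, 11.6% and 13.4% were called lower in these comparisons, and 10.8%, 5.6% and 6.22% lay wholly below control. The second CNN1 probe moved the same way by a smaller amount. Its differences were -0.91 ± 0.19, -0.98 ± 0.19 and -0.54 ± 0.19 (adjusted p = 0.00097, 0.000849 and 0.0317 in limma), its median spot brightness was 180 against 1077 for probe 1, and the probes had r = 0.821. Without the muscle-rich arrays, probe 1 was lower by -1.95 in early and -1.68 in late scar. Mid scar could not be fitted for it, and the second probe gave -1.06 there. Within slides the early difference was -1.74 and -1.87, the mid difference -1.91 and -1.76, and the late difference -2.26, -0.67 and 0.53, the last resting on the muscle-rich late biopsy. With the slide as a fixed block the mid scar difference was -1.15 and no longer called (adjusted p = 0.0788). Between phases no CNN1 difference passed the threshold: mid minus early sham was 0.18 ± 0.32, late minus early sham -0.09 ± 0.32 and late minus mid 0.10 ± 0.28.

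MYL6 did not pass the threshold against control skin at any phase. Control skin read -0.34, -0.26, -0.23 and -0.06. Early scar ran from -0.23 through a median of 0.06 to 0.36, mid scar from -0.81 through -0.08 to 0.12, and late scar from -1.20 through -0.30 to 0.05 over 7 biopsies, the spot of late pressure hyper 50 right being dropped after a scanner flag. The groups overlapped at each phase. The difference from control was 0.28 ± 0.13 in early scar (adjusted p = 0.0881 in limma, 95% interval 0.01 to 0.55), 0.06 ± 0.13 in mid scar (adjusted p = 0.746, interval -0.21 to 0.33) and -0.24 ± 0.13 in late scar (adjusted p = 0.158, interval -0.52 to 0.04). With no background subtraction the late difference was -0.34 and passed the threshold (adjusted p = 0.0224).

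The 4 MYL6 probes varied in how alike they were, with a pairwise r over the arrays from 0.345 to 0.896. Early scar minus control was above 0 with each of them, at 0.28, 0.18, 0.24 and 0.33, and none was called. Mid scar minus control was 0.06, -0.0044, -0.35 and 0.14, and late scar minus control -0.24, -0.15, -0.50 and 0.05. All 4 probes carry the accession of one MYL6 transcript, of the 4 that RefSeq lists for the gene. MYL6B is a close relative, and whether a probe also binds it was not tested.

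**Figure D2:**
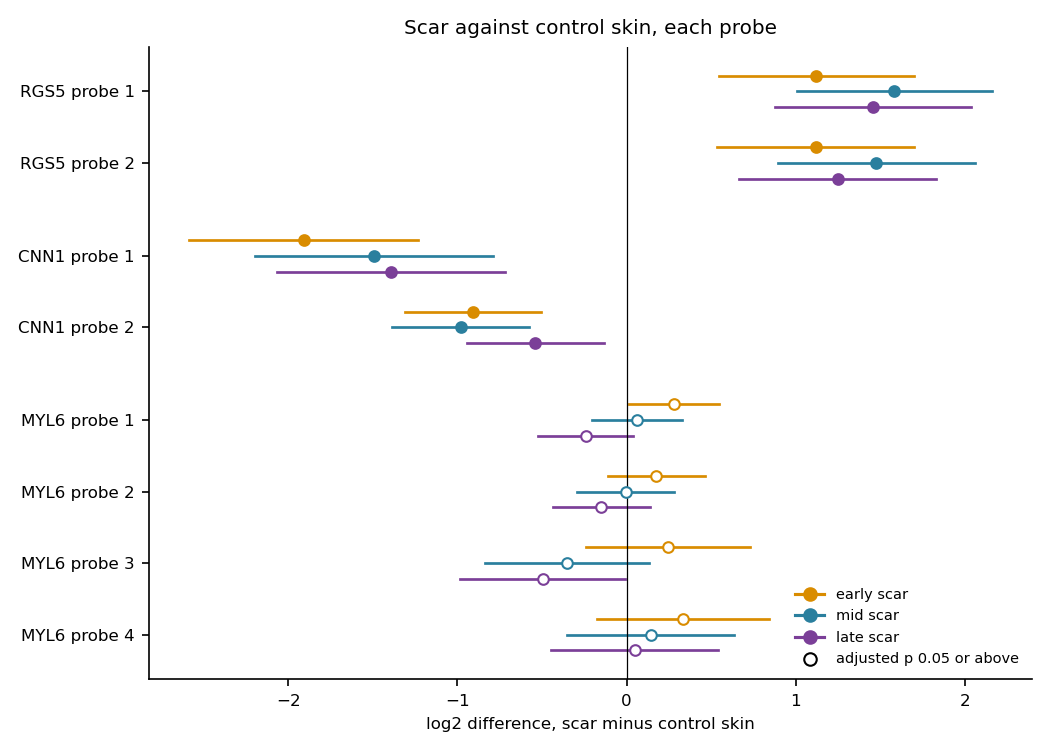
Difference from control skin in early, mid and late scar for each of the 8 probes, as log2 with its 95% interval from limma. Filled points have an adjusted p under 0.05. Both RGS5 probes lie above 0 and both CNN1 probes below 0 in all phases, probe 2 of CNN1 nearer to 0 than probe 1, and no MYL6 point is filled.

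The wider pericyte and mural cell list held 27 genes, of which 11 could be tested. Of these, 4 rose and 1 fell in early scar, 7 rose and 1 fell in mid scar, and 5 rose and 1 fell in late scar, RGS5 itself counted among those that rose. Of all features, 24.1%, 22.1% and 26.3% were called higher in the 3 phases, and 14.7%, 11.6% and 13.4% lower. The list's median difference was 0.50, 0.69 and 0.72 in the 3 phases, beside 0.10 to 0.11 for all features. RGS4, another regulator of G protein signalling, rose by 3.39 ± 0.40 in early scar (adjusted p = 3.59e-06) and by 1.97 and 1.78 in mid and late scar. ANPEP, the aminopeptidase CD13, rose by 1.91 ± 0.29 in early scar (adjusted p = 3.43e-05), and EDNRA, the endothelin A receptor, by 0.81 ± 0.22 (adjusted p = 0.00634). HEY1, a target of Notch signalling, rose by 1.1 ± 0.26 in mid and 1.18 ± 0.26 in late scar (adjusted p = 0.00285 and 0.00117). ENPEP, the aminopeptidase that cleaves angiotensin II, rose by 1.16 ± 0.26 and VTN, encoding vitronectin, by 0.98 ± 0.20 in late scar (adjusted p = 0.00167 and 0.000721). The member that fell was ADIRF, named for its regulation in fat cells, which fell by 2.53 ± 0.30 in early scar (adjusted p = 3.11e-06). Of the 6 pericyte markers PDGFRB, CSPG4, KCNJ8, ABCC9, NOTCH3 and RGS5, only RGS5 could be tested, so pericytes could not be checked by other defining markers. Without the muscle-rich arrays the list had 4, 8 and 8 genes higher and 1 lower in each phase.

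Between early and late sham scar, 2 genes of this list rose and 2 fell. From early to late sham scar RGS4 fell by 1.29 ± 0.40 (adjusted p = 0.0295) and ANPEP by 1.0 ± 0.29 (adjusted p = 0.0198), while VTN rose by 0.69 ± 0.20 (adjusted p = 0.0209) and ADIRF by 1.38 ± 0.30 (adjusted p = 0.00452). RGS5 was not called in that comparison, in which 9.66% of all features rose and 10.2% fell.

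The G protein list of 5 tested genes holds RGS4, RGS2 and 3 G protein alpha subunits. In early scar 4 rose and 0 fell, in mid scar 3 rose, and in late scar 4 rose, beside 24.1%, 22.1% and 26.3% of all features. GNAI2, an inhibitory alpha subunit on which RGS5 acts, rose by 1.46 ± 0.19 in early scar (adjusted p = 7.3e-06), and GNAQ, the subunit that couples contractile receptors to calcium release, by 0.69 ± 0.15 (adjusted p = 0.00116). RGS2 rose by 1.58 ± 0.49 (adjusted p = 0.0151). GNAI3 differed by 0.09 ± 0.14 and was not called.

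CNN1 was the only gene of the smooth muscle contractile list called lower against control skin. Of 14 tested members, 2 rose and 1 fell in early scar, and 1 rose and 1 fell in mid and in late scar. These are smaller shares than the 38.9%, 33.8% and 39.7% of all features called. The list's median difference was 0.21, 0.14 and 0.27. ACTN1, encoding alpha-actinin 1, rose by 1.32 ± 0.25 in early scar (adjusted p = 0.000297), and SMTN, encoding smoothelin, by 0.72 ± 0.22 (adjusted p = 0.0139). PLN, encoding phospholamban, rose by 0.95 ± 0.26 in late scar (adjusted p = 0.0064). ACTA2, the smooth muscle actin also made by myofibroblasts, differed by -0.66 ± 0.27 in early scar and 0.30 ± 0.27 in late scar and was not called (adjusted p = 0.0598 and 0.397). MYL9, the regulatory light chain that pairs with MYL6 in smooth muscle myosin, differed by -0.03 ± 0.20, -0.25 ± 0.20 and 0.22 ± 0.20, and MYLK, the kinase that activates it, by 0.13 ± 0.12, 0.25 ± 0.12 and 0.23 ± 0.12, with no call. From early to late sham scar PLN rose by 1.36 ± 0.26 (adjusted p = 0.00207), while ACTN1 fell by 0.78 ± 0.25 (adjusted p = 0.0315) and VCL, encoding vinculin, fell by 0.54 ± 0.14 (adjusted p = 0.0125). Without the muscle-rich arrays 2 list members fell in early scar, and CNN1 could not be fitted in mid scar.

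The non-muscle actomyosin list had 8 tested genes. In early scar 3 rose and 0 fell, and in mid and late scar 1 rose and 0 fell, beside 24.1%, 22.1% and 26.3% of all features called higher. TPM4, a tropomyosin of non-muscle cells, rose by 1.18 ± 0.25 (adjusted p = 0.000767) and TMSB10, the actin-binding thymosin beta 10, by 0.94 ± 0.27 (adjusted p = 0.00875) in early scar. TPM3 rose at each phase, by 0.65, 0.82 and 0.86. From early to late sham scar TPM4 fell by 1.39 ± 0.25 (adjusted p = 0.00131), ARPC2 by 0.69 ± 0.20 (adjusted p = 0.022) and CAPZB by 0.48 ± 0.16 (adjusted p = 0.0428). MYL6 differed by -0.23 ± 0.13 in that comparison and was not called (adjusted p = 0.205). Without the muscle-rich arrays 4, 3 and 2 of the 8 genes rose in the 3 phases.

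**Figure D3:**
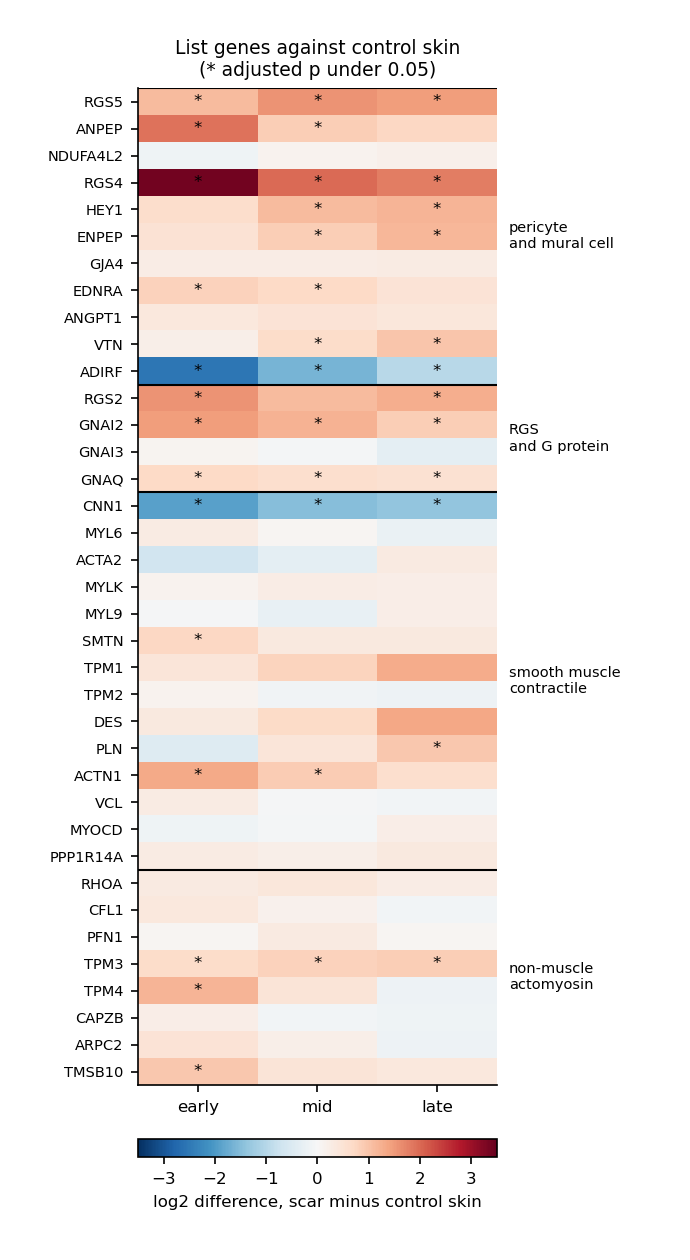
Differences from control skin (log2, colour) of the tested genes of 4 lists in early, mid and late scar, with a star where the adjusted p is under 0.05. RGS4, shown in the first list, also belongs to the second. In the first 2 lists the starred cells are higher in scar apart from those of ADIRF, and in the smooth muscle list CNN1 alone has starred cells lower in scar.

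Markers of other cell types also differed between scar and control skin. Of 11 endothelial markers, 7 rose and 1 fell in early scar, 8 rose and 1 fell in mid scar, and 9 rose and 0 fell in late scar. These and the marker counts that follow stand beside 24.1%, 22.1% and 26.3% of all features called higher and 14.7%, 11.6% and 13.4% called lower. Their mean level, set against each gene's median, was -1.15 to -0.36 in control skin, -0.37 to 0.27 in early, -0.16 to 0.46 in mid and -0.26 to 0.99 in late scar. All 6 fibroblast markers rose in early scar, 5 of 6 macrophage markers rose, 6 of 7 adipocyte markers fell and 3 of 4 keratinocyte markers fell. The adipocyte mean was 0.82 to 1.81 in control skin and -0.84 to 0.33 in early scar, with up to 1.80 in mid and 1.69 in late scar. The keratinocyte mean was 1.11 to 1.25 in control skin and -3.42 to 0.12 in early scar, and reached 1.12 in mid and 1.37 in late scar. The part of these changes in the RGS5 and CNN1 results was not tested.

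Across the 28 arrays, the named genes whose pattern was most like that of RGS5 were IGFBP7 (r = 0.910), CDH5, the endothelial cadherin (r = 0.897), APOA1 (r = 0.868), HEY1 (r = 0.854) and ABCG2 (r = 0.837). Within groups, after removal of the group means, the same 5 had r of 0.826, 0.753, 0.847, 0.838 and 0.783. RGS5 had r = 0.866 with the mean of the endothelial markers. The genes most like CNN1 were TUBA4A (r = 0.861), TOMM20 (r = 0.802), ATIC (r = 0.779), AIMP1 (r = 0.778) and NDRG2 (r = 0.772). Within groups their r was 0.577, 0.415, 0.384, 0.577 and 0.385. Among those most like MYL6 were TMSB10 (r = 0.837), SELENOF (r = 0.762), SYAP1 (r = 0.759) and TMED10 (r = 0.735), with r of 0.726, 0.716, 0.361 and 0.321 within groups. These r values describe 28 arrays that share the groups, the animals and the reference RNA, and were ranked over 2645 named genes with a median r near 0.

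RGS5 and CNN1 had r = -0.48 over 27 arrays. Within groups it was -0.28. MYL6 had r = 0.23 with RGS5, which was -0.31 within groups, and -0.58 with CNN1, which was -0.07 within groups. MYL6 was low where skeletal muscle genes were high (r = -0.63 with the muscle list, -0.37 within groups). The muscle-rich array early sham hypo 50 left read 0.01 for MYL6. CNN1 read -2.21 on that array, -1.20 on mid pressure hyper 49 right and 0.07 on late pressure hyper 49 right. With the muscle list CNN1 had r = 0.26, and 0.62 within groups.

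**Figure D4:**
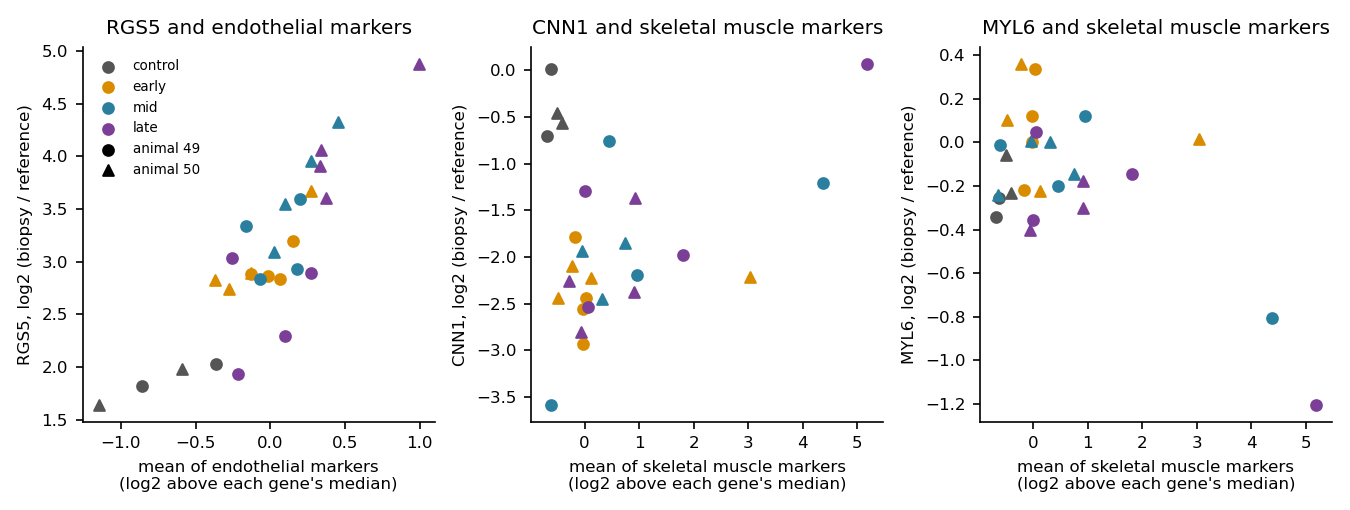
RGS5 against the mean of 11 endothelial markers, and CNN1 and MYL6 against the mean of 22 skeletal muscle markers, on each array with a value (log2 scales, colours by phase, circles animal 49, triangles animal 50). The lowest RGS5 value and the lowest endothelial mean are in control skin. The control range holds 1 late array for RGS5 and overlaps that of early scar for the endothelial mean. The 2 arrays with the most skeletal muscle RNA have the lowest MYL6 values.

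RGS5 and MYL6 read lower in hyper than in hypo scar in most pairs of biopsies from the same animal, side, phase and treatment. The labels do not say whether a pair comes from one scar. RGS5 was lower in the hyper biopsy in 11 of 12 pairs, the differences running from -1.23 through a median of -0.53 to 0.41. The pairs of early scar gave -0.93, -0.31, -0.07 and -0.03, those of mid scar -1.23, -0.75, -0.41 and 0.41, and those of late scar -1.10, -0.97, -0.60 and -0.46. The 1 pair in which hyper was higher was mid sham 49 left. The mean was -0.54 ± 0.49 (SD, n = 12; exact two-sided sign-flip permutation p = 0.00391). MYL6 was lower in the hyper biopsy in 10 of 11 pairs with values, by -0.93 to -0.15, and higher by 0.34 in early 49 right, with a mean of -0.30 ± 0.34 (SD, n = 11; exact permutation p = 0.00977). Of 18487 features with at least 11 measured pairs, 0.119% were lower in hyper scar in all or all but 1 of them, and 0.13% higher. These are 2 of 6 such tests, unadjusted, on genes chosen with earlier results of these data known.

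CNN1 had no common direction between hyper and hypo scar. It was higher in the hyper biopsy in 7 of 11 pairs, from -0.89 to 2.83, with a mean of 0.54 ± 1.04 (SD, n = 11; exact permutation p = 0.109). The animals differed in direction: in animal 49 the hyper biopsy was higher in 6 of 6 pairs (0.12 to 2.83), and in animal 50 it was lower in 4 of 5 (-0.89 to 0.60). That difference was not tested, and the share of all features that divide so by animal is not given here. The animal 49 pairs at 0.99 and 1.36 hold a muscle-rich hyper biopsy. The animal 50 pair at -0.02 holds a muscle-rich hypo biopsy. Fitted in animal 49 alone, CNN1 was higher in hyper scar by 1.17. That animal has a single array in each mid and late group, so the fit holds no spread among those biopsies. Over both animals the second CNN1 probe differed by 0.01 ± 0.13 in the fit. Without the pair of late pressure biopsies from the right side of animal 50, the mean of probe 1 was 0.68 (exact permutation p = 0.043).

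In the fit over all features none of these differences passed the threshold. Hyper minus hypo over all phases was -0.54 ± 0.18 for RGS5 (unadjusted p = 0.00851), 0.54 ± 0.23 for CNN1 (unadjusted p = 0.0269) and -0.35 ± 0.09 for MYL6 (unadjusted p = 0.000981), each with an adjusted p of 0.999 in limma. Only 0.016% of features passed in that comparison, and 2.46% had an unadjusted p under 0.05. By phase the RGS5 difference was -0.34 ± 0.32 in early, -0.50 ± 0.32 in mid and -0.78 ± 0.32 in late scar (adjusted p = 0.998, 0.633 and 0.163). For MYL6 it was -0.13 ± 0.15, -0.38 ± 0.15 and -0.53 ± 0.17 (adjusted p = 0.998, 0.521 and 0.0683). Without late pressure hyper 50 right the late RGS5 difference was -1.15, with the muscle-rich array then alone in that group. Without mid pressure hyper 49 right, or in a separate fit without mid pressure hyper 50 right, the late MYL6 difference was -0.54. The only MYL6 value in late pressure hyper scar is that of the muscle-rich array, here and in the full fit. In late scar 5.03% of features passed, in early and mid scar 0%. The change of the difference from early to late sham scar was -0.19 ± 0.55 for RGS5, -0.17 ± 0.65 for CNN1 and -0.08 ± 0.26 for MYL6, with no call among all features (0%).

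Leaving out the 3 pairs that hold a muscle-rich array changed the MYL6 result more than that of RGS5. RGS5 was then lower in 8 of 9 pairs with a mean of -0.41 (exact permutation p = 0.0312). MYL6 was lower in 7 of 8 pairs with a mean of -0.16 (exact permutation p = 0.0703). The other MYL6 probes gave pair means of -0.17, -0.20 and -0.28 over all pairs with values (exact permutation p = 0.0596, 0.374 and 0.0645). With the local background as deposited the RGS5 mean was -0.31 (exact permutation p = 0.48). A number in the biopsy titles, of no stated unit, differs within 5 of the 12 pairs. RGS5 was lower in 7 of 7 pairs with equal numbers and in 4 of 5 with unequal ones, and MYL6 in 6 of 7 and 4 of 4.

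In late scar, 2 genes of the 4 lists passed the threshold between hyper and hypo biopsies, where 5.03% of all features did. The pericyte, smooth muscle, G protein and actomyosin lists held 11, 14, 5 and 8 tested genes, so the count is near that share. MYLK was lower in hyper scar by 0.54 ± 0.14 (adjusted p = 0.0318) and PPP1R14A, an inhibitor of myosin phosphatase, by 0.75 ± 0.20 (adjusted p = 0.0316). Of all features 4.52% were called lower in hyper scar in that comparison. No other tested gene of the 4 lists was called there.

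Pressure-treated and sham-treated scar were compared in mid and late scar, over 8 pairs of the same animal, phase and pigmentation. Pressure (right side) minus sham (left side) for RGS5 ran from -0.50 through a median of 0.22 to 0.82, higher in 5 of 8 pairs, with a mean of 0.12 ± 0.51 (SD, n = 8; exact permutation p = 0.508). CNN1 was higher under pressure in 6 of 7 pairs with values. In mid scar the pairs gave -0.45, 0.52 and 1.39, and in late scar 0.55, 1.0, 1.25 and 2.05. The mean was 0.90 ± 0.79 (SD, n = 7; exact permutation p = 0.0312, where 7 pairs allow no less than 0.0156). Of 18642 features with at least 7 measured pairs, 2.23% were higher under pressure in all or all but 1, and 2.57% lower. Leaving out any 1 of 6 pairs gave an exact permutation p of 0.0625. The second CNN1 probe, with values in all 8 pairs, gave a mean of 0.05 (exact permutation p = 0.844), and probe 1 with the flagged spot kept gave 0.57 (exact permutation p = 0.203). Without the muscle-rich arrays probe 1 was higher in 5 of 5 pairs, with a mean of 0.94 (exact permutation p = 0.0625, the least that 5 pairs allow). MYL6 was lower under pressure in 5 of 7 pairs, from -1.06 to 0.13, with a mean of -0.31 ± 0.42 (SD, n = 7; exact permutation p = 0.125). Its 2 lowest differences, -1.06 and -0.61, are the pairs with a muscle-rich pressure biopsy, and without them the mean was -0.10.

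In the fit over all features the pressure difference was 0.12 ± 0.23 for RGS5 (adjusted p = 0.972 in limma), 0.85 ± 0.28 for CNN1 (unadjusted p = 0.00712, adjusted p = 0.905) and -0.36 ± 0.11 for MYL6 (unadjusted p = 0.00389, adjusted p = 0.905). In this comparison 0% of features passed, while 5.12% had an unadjusted p under 0.05. The only CNN1 value in mid pressure hyper scar, and the only MYL6 value in late pressure hyper scar, came from muscle-rich arrays. The contrasts of the pressure effect below include them too. The second CNN1 probe differed by 0.05 ± 0.16 in the same fit. In animal 49 alone, with a single array in each mid and late group, the CNN1 difference was 1.06. Without late pressure hyper 50 right it was 1.16, with the muscle-rich array of animal 49 then alone in that group. The 95% interval of the RGS5 difference was -0.35 to 0.60. The pressure effect did not differ past the threshold between hyper and hypo scar (-0.75 ± 0.45 for RGS5, -0.39 ± 0.56 for CNN1, -0.54 ± 0.22 for MYL6) or between late and mid scar (0.21 ± 0.45, 0.73 ± 0.56 and -0.45 ± 0.22). Control skin and early sham scar, without pressure, gave 6 right minus left differences. They ran from -0.78 to 0.33 for RGS5, -0.72 to 0.38 for CNN1 and -0.17 to 0.56 for MYL6. Each sets 1 biopsy against 1 other, so side and variation between biopsies cannot be told apart in them. The RGS5 value of -0.78 holds the muscle-rich early sham hypo 50 left.

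**Figure D5:**
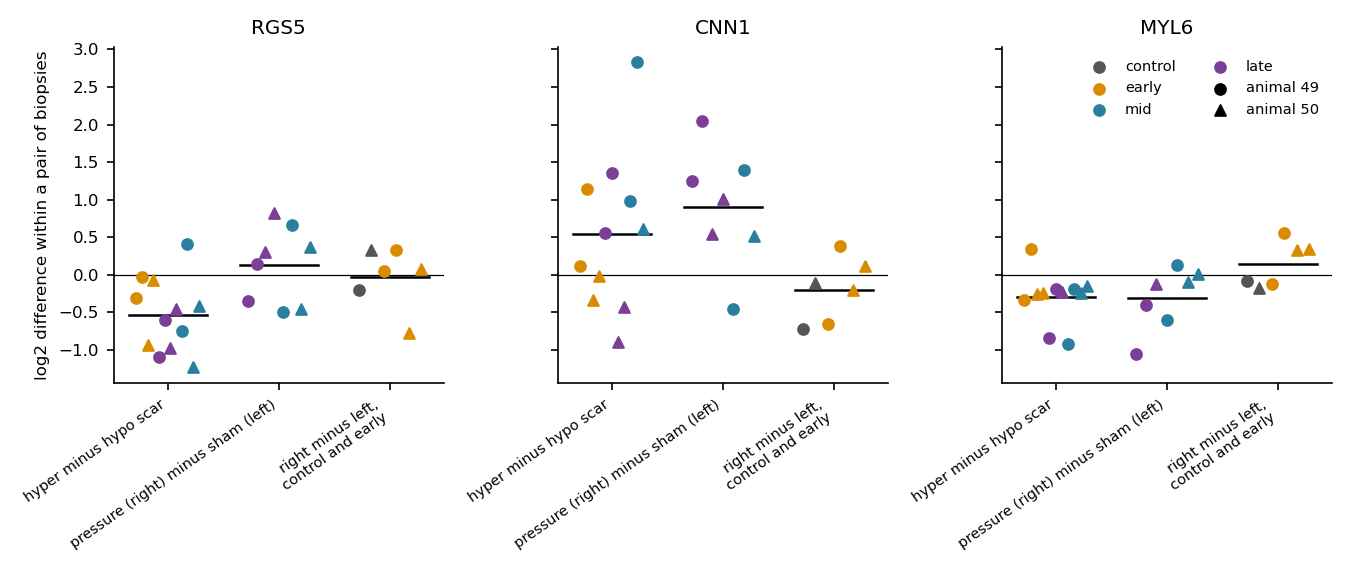
Difference within each pair of biopsies (log2) for the 3 genes: hyper minus hypo scar, pressure minus sham scar, and right minus left in control skin and early scar. Points are pairs, coloured by phase (circles animal 49, triangles animal 50), and bars are means. RGS5 is below 0 in 11 of 12 and MYL6 in 10 of 11 hyper-hypo pairs, while CNN1 is above 0 in 6 of 7 pressure-sham pairs.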

How the data were processed

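Biopsy RNA (RNeasy Fibrous Tissue Kit) carried Cy5, and a commercial pig reference RNA carried Cy3, on all 28 two-channel Agilent arrays (7 slides of 4), with no dye swap, per the labels. Agilent Feature Extraction 10.7.1.1 read the scans, per the submitters' processing notes, and the deposited files give spot and local background intensity per channel. The authors' deposited value table holds log2 values; for 99.97 to 99.99% of probes these lay within 0.001 of log2 of processed red over processed green signal; further steps are not given in the sources used here.

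Median spot intensities were used. Local backgrounds were capped at the 99th percentile of their array and channel, a choice taken over from earlier processing of these data, because spots with backgrounds of up to 649958 otherwise distorted the fit of the correction (the highest median of the negative controls on an array was then 2327, against 74.9). Background correction was by normexp (offset 50) and normalisation by loess within arrays, in limma 3.58.1 (R 4.3.3). Flagged spots were set to missing (0.687% of values). Probes well above background on at least 4 arrays were kept (24510 of 43603), and 18765 features were tested, 2646 with a gene symbol from RefSeq. A gene was represented by its probe of highest mean Cy5 signal.

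One model of 11 group means, blocked on animal, was fitted to all 28 arrays; 16 comparisons were drawn from it, with Benjamini-Hochberg adjustment over all features and a threshold of 0.05. Pair differences were tested by exact two-sided sign-flip permutation. The block follows the labels' animal numbers; after removal of group means, arrays of one animal had a median r of 0.02 with each other. The genes named are the 3 members, the genes of the lists, and the 5 named genes most correlated with each member, of which 1 is not reported here. The members and lists were chosen with earlier results of these data known. The fitting and test functions were tested on simulated data. Alternatives varied the normalisation, background, filter, flags, probe, block, slide, animal and arrays; leaving out the muscle-rich arrays was added after seeing the data. No probe or gene sequence, genome build or coordinate was used here.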

Additional observations from a re-analysis of the deposited data

Results flagged for a closer look

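Within mid scar, the RGS5 difference between pressure and sham biopsies was opposite in the 2 kinds of lesion: -0.50 and -0.46 in the hyper pairs (mean -0.48) against 0.67 and 0.36 in the hypo pairs (mean 0.52), a difference of -0.99. For MYL6 it was -0.61 and -0.09 in the mid hyper pairs (mean -0.35) and 0.13 and 0.004 in the mid hypo pairs (mean 0.07), a difference of -0.42. In hypo scar the MYL6 pressure difference was -0.40 and -0.12 in late scar (mean -0.26) against that mean of 0.07 in mid scar, a difference of -0.33. Each rests on 2 pairs against 2, was noted because all pairs of one kind lay on the other side of 0, and was not tested as such. Over mid and late scar together, the difference in pressure response by lesion colour was not called for RGS5 or MYL6. The RGS5 pair at -0.50 and the MYL6 pair at -0.61 hold the same muscle-rich biopsy, mid pressure hyper 49 right. The share of all features with such opposite pairs is not given here.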

How the results depend on the processing

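Of 810 values recomputed under other settings, 739 kept their direction and side of the threshold, and 1323 of 1368 did so with 1 array or pair left out. For most others the cause was not tested; fewer arrays were fitted where arrays or an animal were left out. With the local background as deposited, RGS5 against control skin was 0.48, 1.15 and 0.71 and no longer called, its hyper-hypo difference was 0.18 in late scar and -0.31 in pairs (exact permutation p = 0.48), its pressure difference was -0.31 (-0.18 in mid, -0.43 in late scar, -0.31 in pairs), the 2 contrasts of the pressure effect were 1.09 (hyper against hypo) and -0.25 (late against mid), and CNN1 was -0.018 for mid against early and -0.15 for hyper against hypo late scar. With slide as a fixed block CNN1 was -1.15 in mid scar against control, 0.60 for late against early, -0.0025 for late against mid, 0.13 for the change of the hyper-hypo difference and -0.35 for the change of the pressure effect. In the authors' deposited table MYL6 in mid scar was -0.023, CNN1 under pressure -0.016 in mid scar and 0.67 in pairs, and the change of the hyper-hypo difference 0.20 for CNN1 and 0.050 for MYL6. With no background subtraction MYL6 was -0.042 in mid, -0.34 in late scar and -0.67 for hyper against hypo late scar.

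MYL6 in mid scar was -0.0044 with probe 2, -0.35 with probe 3 and -0.038 as the mean of its probes; probe 4 gave 0.048 in late scar. Early hyper against hypo was 0.051, 0.058, 0.060 and 0.072 with probes 2, 3, 4 and the mean, and the pair mean -0.17, -0.20, -0.28 and -0.20. The mean of probes gave CNN1 0.026 for late against early, -0.0077 under pressure in mid scar and 0.41 in pairs, and RGS5 -0.041 under pressure in mid scar. CNN1 probe 2 gave 0.14 for late against early, -0.16 for early hyper against hypo, -0.36 under pressure in mid scar and 0.047 in pairs. RGS5 probe 2 gave -0.035 under pressure (-0.10 in mid scar, -0.035 in pairs). With flagged spots kept, CNN1 under pressure was -0.062 in mid scar and 0.57 in pairs. Without the muscle-rich arrays RGS5 was 0.090 for late against mid and -0.044 under pressure in mid scar, CNN1 -0.43 for late hyper against hypo and 0.94 for pressure pairs, and MYL6 0.00093 under pressure in mid scar and -0.16 in hyper-hypo pairs. Animal 49 alone gave RGS5 -0.35 for late against early, -0.85 for late hyper against hypo, -0.011 and, in late scar, -0.11 under pressure and -0.19 for its change. CNN1 was there 0.17 for late against early, 1.17 (mid 1.91, late 0.96) for hyper against hypo and 1.06 (late 1.65) under pressure. Animal 50 alone gave RGS5 0.38 for late against mid, -0.046 under pressure in mid scar and 0.044 for the change of the hyper-hypo difference.

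Leaving out 1 array or pair at a time changed a direction or a call, with these ranges, for mid scar against control (MYL6 -0.012 to 0.13), mid against early (CNN1 -0.18 to 0.53), late against early (CNN1 -0.26 to 0.085), late against mid (RGS5 -0.31 to 0.057, CNN1 -0.21 to 0.37). It did so too for late hyper against hypo scar (RGS5 -1.15 to -0.42, CNN1 -0.43 to 0.73, MYL6 -0.61 to -0.45), pressure against sham (RGS5 -0.058 to 0.31, CNN1 0.58 to 1.16), pressure in mid scar (RGS5 -0.091 to 0.13, MYL6 -0.29 to 0.00396), pressure in late scar (RGS5 -0.14 to 0.59, CNN1 0.63 to 1.79). The same held for the change of the hyper-hypo difference (RGS5 -0.57 to 0.18, CNN1 -0.52 to 0.18, MYL6 -0.24 to 0.075), the pressure effect, hyper against hypo (CNN1 -0.92 to 0.24), the pressure effect, late against mid (RGS5 -0.16 to 0.57), pairs of hyper and hypo (CNN1 0.31 to 0.68), pairs of pressure and sham (CNN1 0.71 to 1.13). Counts of all features called against control skin moved most in animal 50 alone, where they fell at each phase. Those of the hyper-hypo and pressure comparisons moved most in animal 49 alone, where they rose. With the background as deposited the counts moved from 1210 to 2 for mid against early and from 3734 to 11 for late against early sham scar. Fits to either animal alone hold a single array in each mid and late group.

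Without the replicate block for animal, RGS5 in early scar was 1.12 ± 0.35 (adjusted p = 0.0141 in limma), and with a replicate block for animal and side 1.12 ± 0.29 (adjusted p = 0.00547). Neither pairing changed a call of the 3 genes; the second moved the number of features called, mid against early sham scar, from 1210 to 104.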
